A study of Mus musculus with 6 samples.

Results

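The insulin-like growth factor (IGF) axis was followed through 9 genes, chosen by symbol from the 22482 protein-coding genes of the deposited mRNA table. They are the ligand gene Igf1, the receptor genes Igf1r and Igf2r, and 6 genes of binding proteins, Igfbp2, Igfbp3, Igfbp4, Igfbp5, Igfbp6 and Igfbp7. Of these, 7 passed the filter on low values (at least 0.5 FPKM, fragments per length of transcript and size of library, in at least 3 of the 6 libraries), as did 11612 genes in all, and Igf1 and Igfbp3 did not. The cells were cultured vascular smooth muscle cells (VSMCs) from the aorta of C57BL/6 mice, harvested 48 h after adenovirus was added. One group is 3 libraries labelled Myocd knockdown (titled ADV, here knockdown-labelled) and the other is 3 libraries labelled with a negative control virus (titled Ctrl, here control-labelled); the series' design text speaks of wildtype cells for the Ctrl group. The insert and promoter of the virus, the age and number of mice and the passage of the cells are not given by the labels. Nothing says whether replicates are separate cultures, so p-values reflect the spread among libraries of 1 group, which could be technical only.

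Myocd, which encodes the cofactor of serum response factor that drives smooth muscle genes, ran against its label. Its fragments numbered 4984, 4702 and 4466 in knockdown-labelled replicates 1, 2 and 3, the order used throughout, and 2, 0 and 7 in control-labelled ones, a log2 difference in FPKM of 9.87 (limma, adjusted p = 1.11e-05), so every direction below is between libraries as labelled. Recovered fragments per library ran from 7528170 to 9117649 under the knockdown label and from 9303510 to 9793781 under the control label. The cells were checked against marker genes: the smooth muscle markers summed to 521 to 558 FPKM in knockdown-labelled libraries and 115 to 138 FPKM in control-labelled libraries. Acta2 alone averaged 340.2 FPKM in knockdown-labelled libraries and 67.2 FPKM in control-labelled libraries, and Myocd itself, also in this list, averaged 135.8 FPKM in knockdown-labelled libraries and 0.0535 FPKM in control-labelled libraries. Smtn, also in the sum, averaged 56.5 FPKM in knockdown-labelled libraries and 57.6 FPKM in control-labelled libraries, with overlapping groups (limma adjusted p = 0.904). Lower in level, Tagln averaged 7.52 and 0.637 FPKM, Lmod1 0.733 and 0.0774 FPKM, and Cnn1 0.275 and 0.0270 FPKM, in knockdown-labelled and control-labelled libraries. Myh11, the smooth muscle myosin heavy chain, had 6 fragments or fewer in every library. Fibroblast and adventitial markers summed to 1065 to 1315 FPKM in knockdown-labelled libraries and 996 to 1185 FPKM in control-labelled libraries, nearly all of it Ly6a. Of the other fibroblast markers, Pdgfra averaged 16.1 FPKM in knockdown-labelled libraries and 16.2 FPKM in control-labelled libraries, Dcn averaged 5.61 ± 1.39 FPKM in knockdown-labelled libraries and 3.29 ± 0.949 FPKM in control-labelled libraries, with groups that did not overlap (limma adjusted p = 0.126; edgeR adjusted p = 0.0536), and Lum and Thy1 were near 0. Macrophage markers summed to 20.6 to 24.5 FPKM in knockdown-labelled libraries and 22.4 to 26.4 FPKM in control-labelled libraries, with Csf1r, Ptprc and Itgam at or near 0. The macrophage sum was mostly Cd14, at 17.2 FPKM in knockdown-labelled libraries and 20.8 FPKM in control-labelled libraries (groups separate, limma adjusted p = 0.132), and Cd68, at 4.37 FPKM in knockdown-labelled libraries and 3.15 FPKM in control-labelled libraries (limma adjusted p = 0.363). In bulk RNA, fewer cells of a type and less RNA per cell cannot be told apart. Both replicate 3 libraries exceeded the other 4 in FPKM for 8.72% of all genes with a fragment and 10.2% of those under 2 FPKM everywhere. The share for other pairs of libraries was not computed, so these shares do not show that replicate 3 stood apart.

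IGF1 and IGF2 are secreted peptides that act on smooth muscle through the IGF1 receptor, a tyrosine kinase whose signal runs through the insulin receptor substrates to PI3K, AKT and the TOR kinase and favours growth and survival. The IGF2 receptor has no kinase: it carries IGF2, and enzymes tagged with mannose 6-phosphate, to the lysosome. Binding proteins hold IGFs in the extracellular space and either withhold them from the receptor or release them to it, often after a protease has cut the binding protein, and several also act without IGFs. In cultured smooth muscle cells, binding proteins and their proteases are known to set how much IGF reaches the receptor.

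The RNA of this axis lay in binding proteins and receptors, with hardly any ligand. By the mean FPKM over all 6 libraries, a scale that corrects for transcript length, the order was Igfbp6 at 103 FPKM, Igfbp7 at 82.4, Igfbp5 at 56.6, Igf2r at 40.1, Igf1r at 18.1, Igfbp4 at 7.36, Igfbp2 at 6.00, Igfbp3 at 0.436 and Igf1 at 0.120 FPKM. The ranges of neighbours in this order overlapped for Igfbp6 and Igfbp7, where Igfbp6 was the higher in 6 of 6 libraries, for Igfbp4 and Igfbp2, where Igfbp4 was the higher in 5 of 6, and for Igfbp3 and Igf1, where Igfbp3 was the higher in 4 of 6. The other neighbours had separate ranges.

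**Figure D1:**
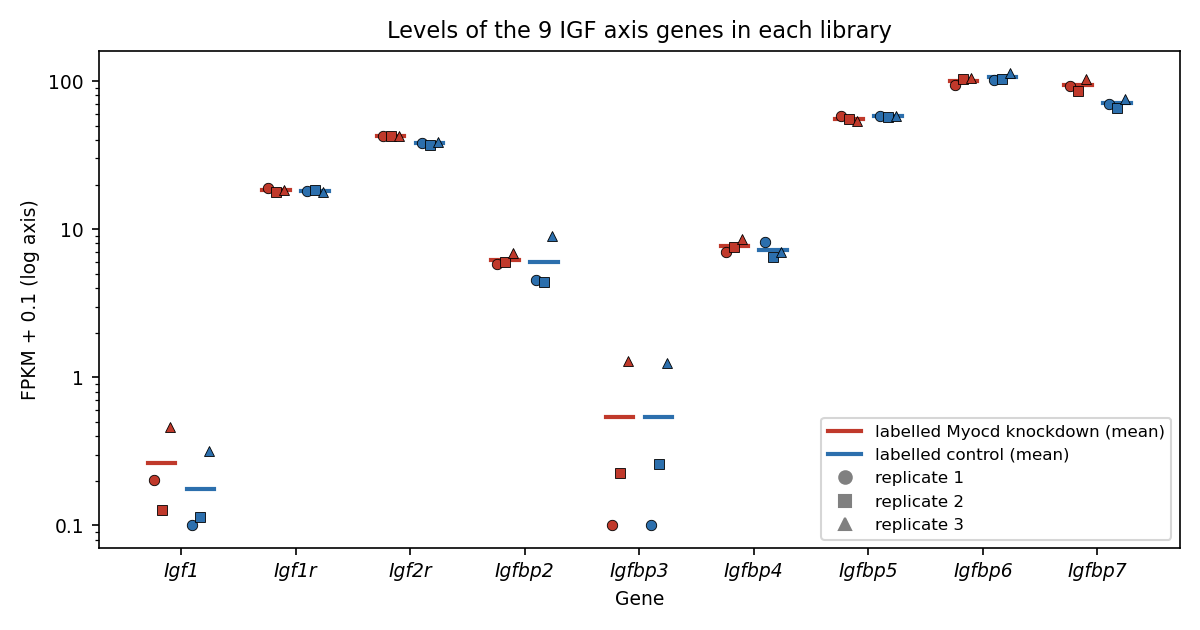
FPKM plus 0.1, on a log axis, of the 9 genes in each library, with the 3 libraries labelled Myocd knockdown in red, left of the 3 labelled control in blue, marker shapes for the replicate numbers and a bar at each group's mean. The red and blue points do not overlap for Igf2r and Igfbp7, and the 2 replicate 3 libraries are the highest for Igf1 and Igfbp3.

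Of the 7 tested genes, 1 was called higher in knockdown-labelled libraries (Igfbp7) and 0 lower, where 1.83% of all tested genes were called higher and 1.61% lower (limma, adjusted p under 0.05). The log2 differences of the 7 had a median of 0.10, with 5 above 0 and 2 below, beside a median of -0.01 over all tested genes. The groups did not overlap in FPKM for 2 of the 7, Igfbp7 and Igf2r, both higher in knockdown-labelled libraries, as in 13.3% of all tested genes. With edgeR on the fragments, 2 of the 7 were called higher, the same genes Igfbp7 and Igf2r, against 5.45% of all genes, and DESeq2 called the same 2, against 4.15% of all genes.

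Igfbp7 was the binding protein gene that rose. It lies on chromosome 5 at 77349240 to 77408045 on the minus strand (GRCm38.p6, ENSMUSG00000036256) and encodes a secreted protein of the vessel wall and its basement membranes that binds IGFs weakly and carries the IGF-binding domain shared by the family. The gene had 93.0, 86.1 and 103.8 FPKM in knockdown-labelled libraries (917, 837 and 871 fragments) and 69.8, 65.9 and 75.7 FPKM in control-labelled libraries (745, 667 and 793 fragments). All 3 knockdown-labelled libraries lay above all 3 control-labelled ones, and within each group replicate 3 was the highest. The mean was 94.3 ± 8.92 FPKM in knockdown-labelled libraries and 70.5 ± 4.93 FPKM in control-labelled libraries (SD, n = 3 each), a log2 difference of 0.42 (SE 0.08) or 1.34-fold, with a 95% interval of 1.17-fold to 1.52-fold and an adjusted p of 0.0418 in limma. EdgeR gave a log2 difference of 0.43 with an adjusted p of 0.00644, and DESeq2 gave 0.000187. An exact two-sided permutation test of the 3 against 3 libraries gave p = 0.1, the smallest this design allows.

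The call for Igfbp7 depended on the tool. With any 1 of the 6 libraries left out, limma kept a log2 difference of 0.35 to 0.48 but called it in 0 of 6 fits (adjusted p 0.0607 to 0.125), while edgeR called it in 6 of 6 (adjusted p 0.00441 to 0.0394). Without both replicate 3 libraries the log2 difference was 0.40 in limma (adjusted p = 0.0629) and 0.41 in edgeR (adjusted p = 0.000342). Igfbp7 is also made by endothelial cells, and the 6 endothelial markers summed to 1.30 to 2.34 FPKM in knockdown-labelled libraries and 0.447 to 1.01 FPKM in control-labelled libraries. Of those markers Emcn had 0 fragments in every library, and Pecam1, Cdh5, Kdr and Tek had at most 14 each, with overlapping groups. Pecam1, Cdh5 and Kdr averaged lower in knockdown-labelled libraries (0.262, 0.113 and 0.0181 FPKM, against 0.307, 0.163 and 0.0256 FPKM). Tek averaged higher there (0.0502 against 0.0369 FPKM). Vwf, which separated the sums, averaged 1.24 FPKM in knockdown-labelled libraries and 0.185 FPKM in control-labelled libraries. It had 22, 15 and 15 fragments in knockdown-labelled libraries and 7, 6 and 13 in control-labelled libraries. The log2 difference of Vwf was 2.28 in FPKM (limma adjusted p = 0.0346) but 1.16 in fragments (edgeR adjusted p = 0.0869), so its size changed with the unit. The part of Vwf-expressing cells, or of the smooth muscle markers above, in the Igfbp7 difference was not tested.

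**Figure D2:**
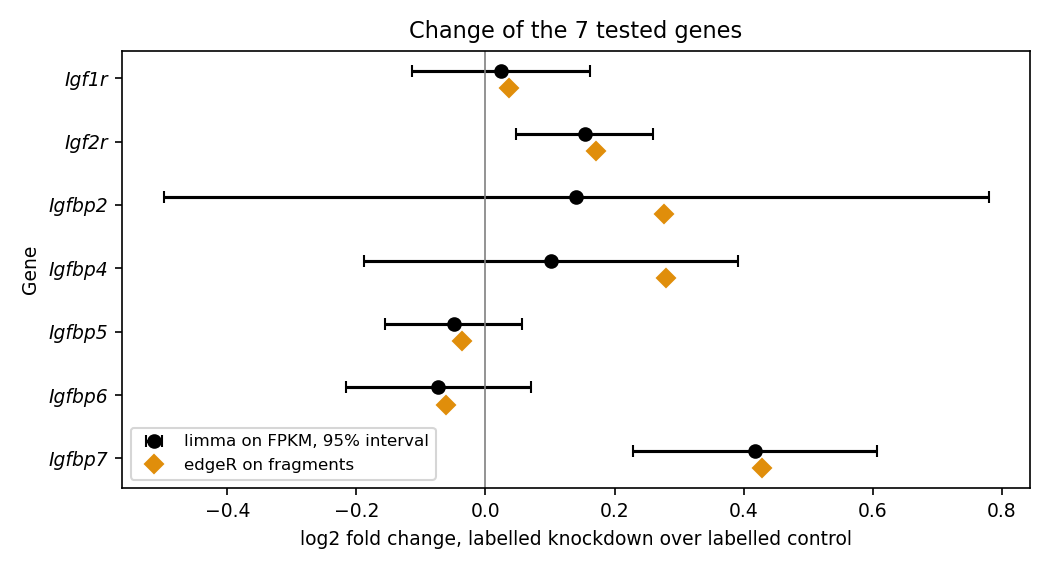
Log2 difference, knockdown-labelled over control-labelled libraries, of the 7 tested genes, from limma on FPKM (black points, with bars for the 95% interval) and from edgeR on fragments (orange diamonds). The intervals of Igf2r and Igfbp7 lie above 0, and those of Igfbp2 and Igfbp4 are the widest.

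The start of Igfbp7 is shown beside those of Igf2r, the other gene with separate groups, and of Igfbp6 and Igfbp5, the other abundant binding protein genes, so that the promoters can be compared. Each is the RefSeq window on GRCm38.p6 from 250 bases before to 50 after the gene's start, read 5′ to 3′ on the gene's strand, with capitals for the motifs GGGCGG and TATAAA found on either strand (CCGCCC and TTTATA read on this strand); neighbouring GGGCGG motifs abut in Igf2r. The windows are chr5:77407996-77408295 (minus strand) for Igfbp7, chr17:12769657-12769956 (minus) for Igf2r, chr15:102143936-102144235 (plus) for Igfbp6 and chr1:72874816-72875115 (minus) for Igfbp5.
Igfbp7: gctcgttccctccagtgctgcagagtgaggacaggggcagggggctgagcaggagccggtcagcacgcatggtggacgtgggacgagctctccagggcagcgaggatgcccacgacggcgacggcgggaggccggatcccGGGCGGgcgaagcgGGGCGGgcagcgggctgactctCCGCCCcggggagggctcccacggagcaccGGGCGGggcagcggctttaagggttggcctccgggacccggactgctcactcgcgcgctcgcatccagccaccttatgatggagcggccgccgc
Igf2r: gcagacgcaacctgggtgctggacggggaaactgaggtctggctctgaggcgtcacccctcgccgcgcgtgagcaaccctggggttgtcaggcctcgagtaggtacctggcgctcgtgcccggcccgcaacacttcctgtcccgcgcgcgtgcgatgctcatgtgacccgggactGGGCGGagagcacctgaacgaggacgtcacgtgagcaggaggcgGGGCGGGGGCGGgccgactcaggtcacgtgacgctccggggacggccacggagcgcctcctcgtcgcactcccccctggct
Igfbp6: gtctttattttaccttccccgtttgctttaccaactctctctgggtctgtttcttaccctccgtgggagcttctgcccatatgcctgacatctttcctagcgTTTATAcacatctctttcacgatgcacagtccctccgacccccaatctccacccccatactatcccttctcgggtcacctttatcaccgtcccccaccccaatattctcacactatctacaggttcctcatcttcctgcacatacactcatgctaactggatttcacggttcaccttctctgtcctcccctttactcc
Igfbp5: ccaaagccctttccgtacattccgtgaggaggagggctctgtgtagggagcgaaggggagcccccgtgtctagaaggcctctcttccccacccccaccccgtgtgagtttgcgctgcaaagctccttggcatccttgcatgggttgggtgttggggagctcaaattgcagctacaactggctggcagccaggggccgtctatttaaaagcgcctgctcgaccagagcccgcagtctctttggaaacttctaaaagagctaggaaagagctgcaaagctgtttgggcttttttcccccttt

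All 9 genes matched a RefSeq promoter entry, in 10 windows, since Igfbp2 has 2. Those of Igf1, Igfbp3 and Igfbp4 and the second of Igfbp2 are set on a start inside the RefSeq gene span printed here, not at its outer end; for Igfbp4 that start is 99041244, against 99040005 for the span. The CArG box, the motif bound by serum response factor, was searched on both strands and matched in 0 of these 10 windows, against 1.63% of all 32851 mouse windows. With 1 mismatch allowed it matched only in Igfbp2, with its first base at -21 from the start, where 21.1% of all windows match. GGGCGG, the core of a GC box, occurred 4 times in Igfbp7, 3 times in Igf2r, 3 times in Igfbp2 and 2 times in Igf1r, and in 35.7% of all windows. TATAAA occurred in Igfbp4 at -28 and in Igfbp6 at -148, and in 13.6% of all windows. GC content was 73.3% for Igfbp7, 70.7% for Igf2r, 49.7% for Igfbp6 and 56.3% for Igfbp5, beside a median of 52.7% over all windows. A match or its absence describes only the letters of these windows.

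The genes whose profile over the 6 libraries was most like that of Igfbp7, by Pearson r of log2(FPKM + 0.1) among 6898 tested genes averaging 10 FPKM or more, were Actn1, Trim11 and Snrpf, with r of 0.993, 0.991 and 0.990. Actn1, the gene of an actin-crosslinking alpha-actinin, averaged 100.6 ± 2.89 FPKM in knockdown-labelled libraries and 89.7 ± 2.07 FPKM in control-labelled libraries (SD, n = 3 each; limma adjusted p = 0.0787). Trim11, the gene of a tripartite motif protein, averaged 11.3 ± 0.746 FPKM in knockdown-labelled libraries and 9.34 ± 0.351 FPKM in control-labelled libraries (limma adjusted p = 0.115). Snrpf, the gene of a core spliceosome protein, averaged 116 ± 8.09 FPKM in knockdown-labelled libraries and 94.2 ± 5.93 FPKM in control-labelled libraries (limma adjusted p = 0.0620). None of the 3 passed the limma test, and the correlations are a description over 6 points that share the group difference.

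The other abundant binding protein genes did not pass any of the 3 tests. Igfbp6 (chromosome 15, 102144186 to 102149512, plus strand), whose protein binds IGF2 more tightly than IGF1, had 93.8, 103.3 and 104.8 FPKM in knockdown-labelled libraries, against 101.8, 103.0 and 112.6 FPKM in control-labelled libraries. The groups overlapped, and the log2 difference was -0.07 (SE 0.06), an interval of 0.860-fold to 1.05-fold (limma adjusted p = 0.519). Igfbp5, whose protein binds the extracellular matrix and is a main binding protein of smooth muscle cells, had 58.0, 54.9 and 54.0 FPKM in knockdown-labelled libraries, against 57.9, 57.2 and 57.6 FPKM in control-labelled libraries. Its highest and lowest libraries were both among the knockdown-labelled, and the log2 difference was -0.05 (SE 0.05), an interval of 0.898-fold to 1.04-fold (limma adjusted p = 0.556). The Igfbp5 level also depends on how fragments were divided with uc029qpa.1, a noncoding transcript that shares its exons and is described below. 

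Igfbp7 took a larger share of the binding protein RNA in knockdown-labelled libraries. Igfbp7 made up 36.1%, 33.4% and 37.2% of the summed FPKM of the 6 binding protein genes in knockdown-labelled libraries, against 28.9%, 27.8% and 28.8% in control-labelled libraries. Igfbp6 made up 38.0% ± 1.85 in knockdown-labelled libraries and 42.8% ± 0.696 in control-labelled libraries (SD, n = 3 each), and Igfbp5 made up 21.1% ± 1.60 in knockdown-labelled libraries and 23.3% ± 1.22 in control-labelled libraries. The shares of Igfbp7 and Igfbp6 did not overlap between the groups, and those of Igfbp5 did. Shares of a sum depend on each other, and the FPKM of Igfbp6 itself overlapped between the groups. The summed FPKM was 257, 258 and 279 in knockdown-labelled libraries and 242, 237 and 263 in control-labelled libraries, so the sums overlapped. Igfbp7 stood at 1.70 ± 0.195 times Igfbp5 in knockdown-labelled libraries and 1.22 ± 0.0819 times in control-labelled libraries. This ratio and the Igfbp5 share depend on the division of fragments between Igfbp5 and uc029qpa.1. Igfbp5, Igfbp6 and Igfbp7 together held 94.7% of the sum in knockdown-labelled libraries and 94.6% in control-labelled libraries.

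**Figure D3:**
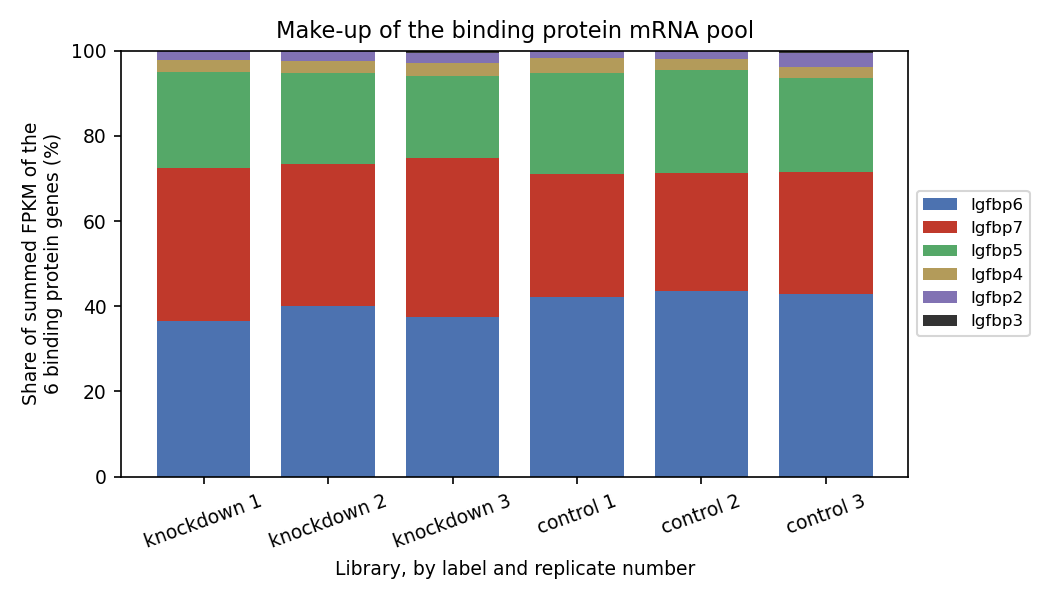
Share of the summed FPKM of the 6 binding protein genes, in percent, stacked for each library, with the 3 libraries labelled knockdown left of the 3 labelled control. The red Igfbp7 band spans 33.4% to 37.2% in knockdown-labelled libraries and 27.8% to 28.9% in control-labelled libraries.

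The 2 lower binding protein genes that could be tested were measured less precisely. Igfbp4 (chromosome 11, 99040005 to 99052655, plus strand), whose protein mostly withholds IGFs until the protease PAPP-A cuts it, had 6.90, 7.50 and 8.46 FPKM in knockdown-labelled libraries, against 8.04, 6.35 and 6.92 FPKM in control-labelled libraries, with no separation of the groups. Its log2 difference was 0.10 (SE 0.12), an interval of 0.878-fold to 1.31-fold (limma adjusted p = 0.662). In fragments the log2 difference of Igfbp4 was 0.28 (edgeR adjusted p = 0.260; DESeq2 adjusted p = 0.490). With 1 library left out it ran from 0.02 to 0.19 in limma and from 0.18 to 0.46 in edgeR, highest without control replicate 1, and without both replicate 3 libraries it was 0.01 in limma and 0.11 in edgeR. Igfbp2, whose protein can bind integrins at the cell surface, had 5.72, 5.89 and 6.76 FPKM in knockdown-labelled libraries, against 4.40, 4.30 and 8.92 FPKM in control-labelled libraries. The control replicate 3 was above every other library and the other controls below, so that the log2 difference of 0.14 (SE 0.27) had an interval of 0.708-fold to 1.72-fold (limma adjusted p = 0.795; edgeR adjusted p = 0.577). The limma log2 difference of Igfbp2 was -0.02 without control replicate 1 and -0.04 without control replicate 2, but 0.48 without control replicate 3 (adjusted p = 0.121) and 0.41 without both replicate 3 libraries (adjusted p = 0.156). In edgeR it was 0.28 with all libraries, 0.72 without control replicate 3 (adjusted p = 0.0892) and 0.55 without both replicate 3 libraries (adjusted p = 0.148). Estimated counts per FPKM, which a single transcript model would hold nearly constant, varied 1.40-fold between libraries for Igfbp4 and 1.36-fold for Igfbp2, and at most 1.03-fold for the other 5 tested genes.

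Igfbp2 and Igfbp5 lie tail to tail on chromosome 1, with 5590 bases between their RefSeq ends, Igfbp2 at 72824480 to 72852474 on the plus strand and Igfbp5 at 72858065 to 72874865 on the minus strand (GRCm38.p6). The deposited noncoding table holds 15 transcripts that the authors paired with 5 of the 9 genes, of which 6 were expressed enough to be tested and 0 were called (limma; 1 at an unadjusted p under 0.05), where 4.26% of all tested noncoding transcripts were called. That 1 was uc029qpa.1, which overlaps Igfbp5 exons on the same strand. It had 14.4, 13.8 and 21.7 FPKM in knockdown-labelled libraries, against 10.8, 8.49 and 13.2 FPKM in control-labelled libraries. The groups were separate, with a log2 difference of 0.61 (SE 0.24, limma adjusted p = 0.292), and its level was 24.9%, 25.2% and 40.3% of the Igfbp5 gene FPKM in knockdown-labelled libraries and 18.7%, 14.8% and 22.9% in control-labelled libraries. Since it shares exons with Igfbp5, how the authors' counting divided the fragments between them sets both values.

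The 2 receptors differed in what could be resolved. Igf1r, the gene of the signalling receptor (chromosome 7, 67952257 to 68233668, plus strand), had 18.8, 17.6 and 18.2 FPKM in knockdown-labelled libraries, against 17.9, 18.2 and 17.6 FPKM in control-labelled libraries. The groups overlapped fully, and the log2 difference of 0.02 (SE 0.06) had an interval of 0.924-fold to 1.12-fold (limma adjusted p = 0.840; edgeR adjusted p = 0.649).

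Igf2r, the gene of the lysosomal sorting receptor (chromosome 17, 12682406 to 12769706, minus strand), had 42.4, 42.1 and 42.1 FPKM in knockdown-labelled libraries, against 38.1, 37.0 and 38.9 FPKM in control-labelled libraries. All 3 knockdown-labelled libraries lay above all 3 control-labelled ones, with means of 42.2 ± 0.182 FPKM in knockdown-labelled libraries and 38.0 ± 0.978 FPKM in control-labelled libraries (SD, n = 3 each). The log2 difference was 0.15 (SE 0.04), an interval of 1.03-fold to 1.20-fold, which missed the threshold in limma (adjusted p = 0.108) and passed it in edgeR (log2 0.17, adjusted p = 0.00697) and DESeq2 (adjusted p = 0.000749). EdgeR called it with each library left out (adjusted p 0.00899 to 0.0467) and limma in 0 of those 6 fits (adjusted p 0.139 to 0.256). Without both replicate 3 libraries the log2 difference was 0.17 in limma (adjusted p = 0.152) and 0.19 in edgeR (adjusted p = 0.00115). The ratio of Igf2r to Igf1r in FPKM was 2.32 ± 0.0697 in knockdown-labelled libraries and 2.12 ± 0.0911 in control-labelled libraries (SD, n = 3 each).

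Igf2r is an imprinted gene in the mouse, and the antisense RNA Airn, read from within it, silences the paternal copy in many tissues. The 9 Airn transcripts of the noncoding table summed to 59, 44 and 48 fragments in knockdown-labelled libraries and 44, 48.4 and 60 in control-labelled libraries, with no separation of the groups. The most abundant one, ENSMUST00000079529, had a log2 difference of -0.34 (SE 0.43, limma adjusted p = 0.754) that turned to 0.15 without knockdown replicate 3. The allele a fragment came from is not in these tables.

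The ligand was almost silent. Igf1 (chromosome 10, 87858265 to 87937047, plus strand), which encodes the growth factor itself, had 3, 2 and 11 fragments (0.101, 0.0270 and 0.361 FPKM) in knockdown-labelled libraries, and 0, 1 and 12 (0, 0.0129 and 0.218 FPKM) in control-labelled libraries, too few to test. Igfbp3 (chromosome 11, 7206086 to 7215498, minus strand), whose protein is the main IGF carrier of blood plasma, had 0, 3 and 24 fragments in knockdown-labelled libraries and 0, 4 and 29 in control-labelled libraries, and was not tested either. A count of 0 allows up to 3 fragments in a library, so at this depth replicate 1 of each group cannot be told from a low level of Igfbp3. Igf2, the other ligand, had 1, 0 and 30 fragments in knockdown-labelled libraries and 0, 0 and 21 in control-labelled libraries. Its FPKM passed the filter in exactly 3 libraries and gave a log2 difference of 1.16 with an SE of 1.20 (limma adjusted p = 0.606), and 1 fragment was given 0.580 FPKM in knockdown replicate 1. With 1 library left out the limma difference of Igf2 ran from 0.39 without knockdown replicate 3 to 2.24 without knockdown replicate 2, and was 2.16 without control replicate 3. Without both replicate 3 libraries Igf2 was under the filter.

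Igf1, Igfbp3 and Igf2 were highest in replicate 3 of both groups, with too few fragments to resolve a difference between the groups. Both replicate 3 libraries exceeded all other 4 in FPKM for 4 of the 9 genes (Igf1, Igfbp2, Igfbp3 and Igfbp6) and for 11 of 59 other pathway genes with a fragment, where 8.72% of all genes with a fragment did. Not all of these were low genes, and some margins were small. Igfbp6 had 104.8 FPKM in knockdown replicate 3, against 103.3 FPKM in knockdown replicate 2. Pdpk1, named after its values were seen, had 30.0 FPKM in knockdown replicate 3 and 29.8 FPKM in knockdown replicate 1. Grb10, the gene of an adaptor that restrains the receptor's signal and, like Igf2, an imprinted gene, was named after its values were seen: it had 4, 5 and 42 fragments in knockdown-labelled libraries and 4, 1 and 55 in control-labelled libraries. Of the fibroblast and adventitial markers, Lum, Thy1 and Dpt also had both replicate 3 libraries above the other 4 in FPKM. Pdgfra, Dcn, Pi16 and Ly6a did not. Lum had 0, 0 and 4 fragments in knockdown-labelled libraries and 0, 0 and 3 in control-labelled libraries, and Thy1 had 0, 0 and 6 in knockdown-labelled libraries and 0, 0 and 4 in control-labelled libraries. The summed fibroblast and adventitial markers, nearly all Ly6a, went the other way, at 1065 and 996 FPKM in knockdown and control replicate 3, the lowest of each group. The part of other cells in the replicate 3 levels was not tested.

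**Figure D4:**
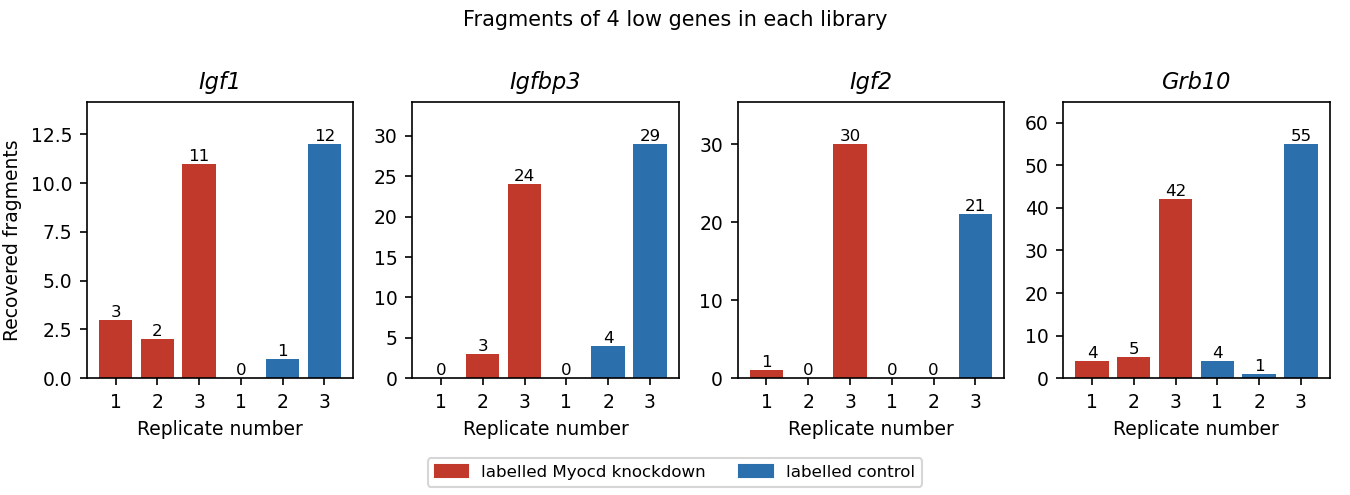
Recovered fragments of Igf1, Igfbp3, Igf2 and Grb10 in each library, with replicates 1 to 3 labelled knockdown in red, left of replicates 1 to 3 labelled control in blue; each panel has its own axis from 0. In all 4 panels the replicate 3 bar is the tallest of its group, for Igfbp3 with 24 and 29 fragments against 4 or fewer in the other libraries.

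Around these genes, 64 further genes of the pathway were listed by role, all of them in the table, and 52 were tested. Of these, 1 was called higher (Gsk3b), 0 lower and 51 did not pass in limma, where 1.83% and 1.61% of all tested genes were called higher and lower. Of the differences, 27 were above 0 and 25 below, with a median log2 difference of 0.01 beside -0.01 for all tested genes. The groups did not overlap for 9 that were higher and 5 that were lower in knockdown-labelled libraries, where 13.3% and 15.6% of all tested genes were. EdgeR called 2 of 51 higher (Shc1 and M6pr) and 0 lower, against 5.45% and 4.5% of all genes. DESeq2 called M6pr higher, against 4.15% of all genes.

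Gsk3b, which encodes a kinase that AKT inhibits, had 48.3, 47.1 and 48.0 FPKM in knockdown-labelled libraries, against 38.5, 41.3 and 41.6 FPKM in control-labelled libraries. The groups were separate, with a log2 difference of 0.24 (SE 0.05, limma adjusted p = 0.0483). In fragments the difference was 0.11 (edgeR adjusted p = 0.0641). The estimated counts per FPKM of Gsk3b were 56.3, 55.4 and 54.0 in knockdown-labelled libraries and 63.5, 59.8 and 59.6 in control-labelled libraries. The groups did not overlap in this ratio, so the FPKM difference includes a group difference in counts per FPKM. Limma called Gsk3b in 0 of 6 fits with a library left out, and edgeR in 1 of 6. Foxo1 and Foxo3, genes of transcription factors that AKT keeps out of the nucleus, were chosen after their values were seen and did not pass (adjusted p = 0.563 and 0.388 in limma).

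The mannose 6-phosphate route, which shares its cargo with Igf2r, had 7 tested genes and 0 calls in limma. M6pr, the gene of the smaller mannose 6-phosphate receptor, was named because both count tests called it: it had 79.1, 77.1 and 76.9 FPKM in knockdown-labelled libraries, against 70.1, 66.2 and 67.4 FPKM in control-labelled libraries. All 3 knockdown-labelled libraries were the higher ones, with a log2 difference of 0.20 (SE 0.04, limma adjusted p = 0.0555; edgeR adjusted p = 0.00814; DESeq2 log2 0.20, adjusted p = 0.00436). Gnptab and Gnptg, which encode subunits of the enzyme that starts the mannose 6-phosphate tag, were chosen after their values were seen. Gnptg had a log2 difference of 0.35 (limma adjusted p = 0.117), and Gnptab one of -0.33 in FPKM (limma adjusted p = 0.178) but 0.07 in fragments (edgeR adjusted p = 0.346), so its direction changed with the unit.

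Upstream of the binding proteins, 6 protease and inhibitor genes were tested and 0 called. Htra1, a secreted serine protease that cuts binding proteins, was among the most abundant genes of the pathway, at 128 ± 5.80 FPKM in knockdown-labelled libraries and 125 ± 4.79 FPKM in control-labelled libraries (SD, n = 3 each; limma adjusted p = 0.811). Pappa, the gene of the protease of IGFBP4, had 2, 2 and 7 fragments in knockdown-labelled libraries and 4, 8 and 6 in control-labelled libraries, under the filter. Stc1, the gene of a stanniocalcin that inhibits PAPP-A, was chosen after its values were seen: it had 16, 14 and 13 fragments in knockdown-labelled libraries and 27, 28 and 25 in control-labelled libraries. Its groups were separate, but the log2 difference of -0.61 (SE 0.30) did not pass (limma adjusted p = 0.283; edgeR adjusted p = 0.124).

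Downstream of the receptor no insulin-branch gene that was always to be described passed. Insr, the insulin receptor gene, averaged 9.14 ± 0.844 FPKM in knockdown-labelled libraries and 8.59 ± 0.474 FPKM in control-labelled libraries (limma adjusted p = 0.641). Irs1, the substrate gene that links the receptor to PI3K, averaged 17.9 ± 0.932 FPKM in knockdown-labelled libraries and 19.1 ± 0.419 FPKM in control-labelled libraries (log2 -0.09, limma adjusted p = 0.422), and Irs2 averaged 4.68 ± 0.623 FPKM in knockdown-labelled libraries and 4.57 ± 0.515 FPKM in control-labelled libraries (limma adjusted p = 0.920). Shc1, the gene of an adaptor to the RAS branch, had a log2 difference in FPKM of 0.08 (limma adjusted p = 0.364) and passed in edgeR only (log2 0.14, adjusted p = 0.0492; DESeq2 adjusted p = 0.0837). Igfbp1, a binding protein gene typical of liver, had 0 fragments in every library; it lies 3539 bases from Igfbp3. The PI3K and AKT genes (10 tested) and the TOR branch genes (10 tested) had 0 calls in limma and in edgeR, with median log2 differences of 0.03 and -0.05.

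**Figure D5:**
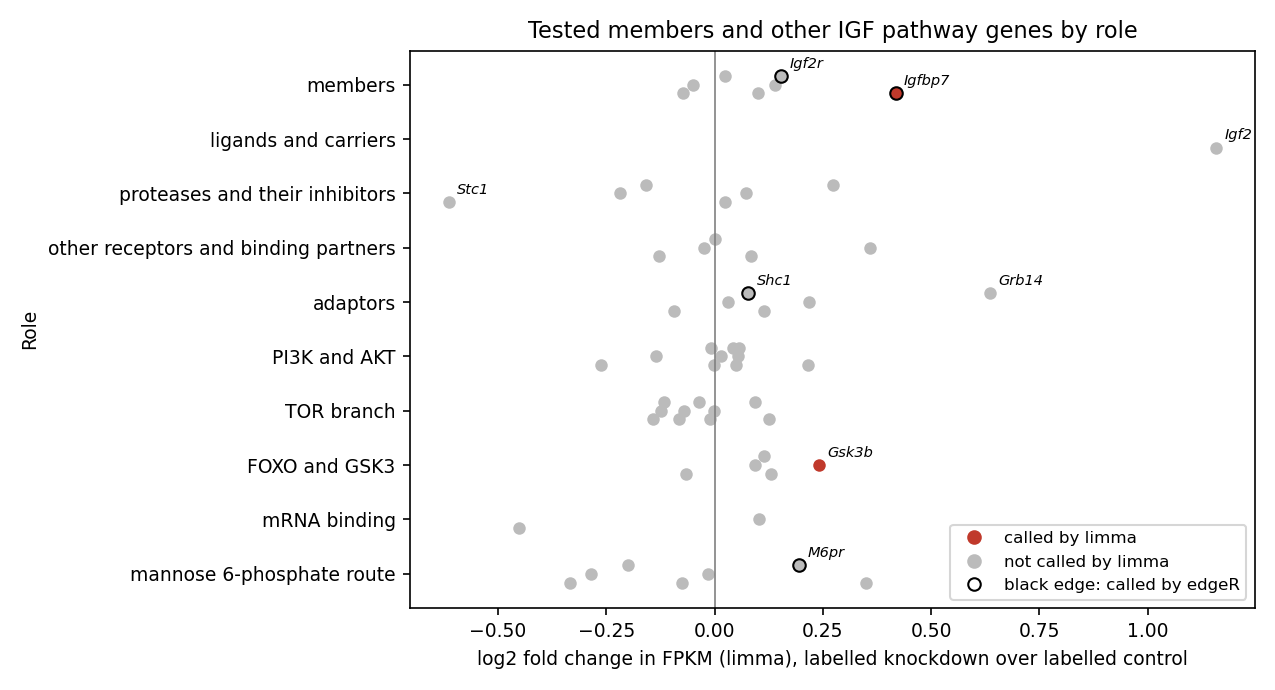
Log2 difference in FPKM from limma, knockdown-labelled over control-labelled libraries, of the 7 tested IGF axis genes (top row) and the 52 tested pathway genes by role; red points were called by limma and black edges mark calls by edgeR. Most points lie within 0.25 of 0, Igfbp7 and Gsk3b are red, and Igf2, at 1.16, rests on few fragments.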

How the data were processed

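Ribosomal RNA was removed from total RNA and stranded libraries were made, per the labels' protocols. Per the submitters' processing notes, Cuffdiff 2.2.1, Cufflinks, HISAT2 2.0.4 and cutadapt were used, and mm9 and mm10 are listed with no roles. No source used here gives the annotation release or says whether strand was used in counting. The deposited tables hold FPKM values and, beside them, estimated counts that the authors' scaling multiplied by 1 constant per library (0.916 to 1.20). Dividing by it recovered fragments, of which 89.4% to 90.4% (mRNA) and 62.0% to 63.1% (noncoding), among values above 0, lay within 0.01 of a whole number. Rows of 79 repeated symbols were summed.

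Locus starts plus 1 matched RefSeq GRCm38 starts for 6246 genes, against 472 without the shift. Limma 3.58.1 (R 4.3.3) with an intensity trend was run on log2(FPKM + 0.1), group only, over 11612 genes and, with a filter of 0.1 FPKM, 4955 noncoding transcripts, with two-sided Benjamini-Hochberg adjusted p under 0.05 as the call; fold changes on this scale understate those of low genes. EdgeR 4.0.16 (quasi-likelihood, TMM) and DESeq2 1.42.0 were run on recovered fragments rounded to whole numbers. The fits were also run on simulated counts with fixed counts per FPKM for each gene. That ratio varied here for Igfbp4, Igfbp2 and Gsk3b, so the simulation does not cover such genes. Members and gene lists were chosen with earlier results of these data known.

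The named genes are the 9 members, Myocd, pathway genes called in limma, Igf2, Igfbp1, Insr, Irs1, Irs2, Pappa and Htra1. For each called member the 3 genes of highest Pearson r are named as well. Beyond this rule, Shc1, the noncoding transcripts and the markers, from lists by cell type, were named with their values known. Where any other gene is named, the text says that it was picked with its values known. As alternatives, the pseudocount, filter and scaling were varied, limma was run robustly and without trend, the replicate number was used as a block, the count tools were run and libraries were left out. Counting error only is covered by the limit of 3 fragments for a count of 0.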

Additional observations from a re-analysis of the deposited data

How the results depend on the processing

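With 3 libraries a group, the number of calls depended on the tool and on each library. Of the 9 genes, 1 was called higher (Igfbp7), against 0 with no filter, without trend, without both replicate 3 libraries and with each library left out in limma, and 2 (Igfbp7 and Igf2r) with edgeR, with or without the filter or block, and DESeq2; 0 were called lower in every fit. EdgeR with libraries left out, added after seeing the data, called 2 in each fit. Of the pathway list 1 was called higher: 0 with pseudocount 0.01, no filter, no trend, the limma replicate block, each library left out and both replicate 3 libraries left out, 2 with edgeR, 4 with edgeR without knockdown replicate 3 and 6 with edgeR without both replicate 3 libraries. It had 0 called lower, but 1 without trend and 1 without control replicate 3. Over all genes the 400 calls became 144 without trend, 44 to 178 with each library left out, 76 without both replicate 3 libraries, 1150 with edgeR, 1168 with edgeR and no filter, 717 with DESeq2, and 1508 with edgeR without both replicate 3 libraries. EdgeR's own 1150 became 618, 534 and 1085 without knockdown replicates 1, 2 and 3, and 533, 572 and 915 without control replicates 1, 2 and 3. The cause was not tested. Deviations of same-numbered libraries from their group means correlated at 0.04, 0.00 and 0.10, and only replicate 3 was closest to its own number. Such correlations over all tested genes cannot show whether same-numbered libraries were paired. The replicate block gave 243 calls over all genes in limma and 1715 in edgeR, with 5 pathway genes higher and 2 lower in edgeR. Igfbp7 kept its direction in all 27 alternatives (log2 0.34 to 0.50) and its call in 18. Igf2r did too (0.13 to 0.19), with a call in 11. Both tallies include the edgeR fits with libraries left out that were added after seeing the data, all of which called both genes. Uncalled differences that changed sign were Htra1 (-0.0007 without knockdown replicate 1 and -0.0063 without control replicate 3 in limma, up to 0.062 with others left out; -0.0099, -0.0015 and -0.017 without knockdown replicates 1 and 2 and control replicate 3 in edgeR), Igfbp2 (-0.021 and -0.038 without control replicates 1 and 2 in limma, up to 0.48 without control replicate 3, and 0.72 there in edgeR), Insr (-0.026 without both replicate 3 libraries) and the Airn transcript (0.15 without knockdown replicate 3, 0.20 without both, down to -0.64). Irs2 gave -0.063, -0.058 and -0.042 without knockdown replicate 3, control replicate 1 or both replicate 3 libraries in limma, and -0.056, -0.045 and -0.035 in edgeR. Of the 15 noncoding transcripts paired with these genes, 0 were called in limma and in its 15 alternatives; the count tools and TMM scaling were not run on them. Depth limits Igf1, Igfbp3 and Igf2, which had at most 30 fragments in a library.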
